A study of Mus musculus with 2 samples.

Results

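Genes that encode the CD8 coreceptor, natural killer (NK) cell receptors and the adapters through which those receptors signal were followed in regulatory T cells (Treg cells) of the mouse colon. The set has 10 genes, taken by gene name from a deposited table of 55246 loci: the coreceptor chains Cd8a and Cd8b1, the lectin-like receptors Klrb1c, Klrb1f, Klrc1, Klrd1 and Klrk1, the immunoglobulin-like receptor Ncr1, and the adapters Fcer1g and Tyrobp. The cells are labelled Tregs and came from the lamina propria of female mice. One group is wild type (WT) and the other carries a Foxp3 allele without exon 2 (Exon2KO), and each is 1 library of total RNA. The labels give no strain, age, sorting scheme or number of pooled mice. With 1 library a genotype there was no replicate check on any difference, and every interval below covers counting error only.

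CD8 binds class I MHC molecules beside the T cell receptor. It is a dimer, either of the alpha and beta chains on conventional cytotoxic T cells or of 2 alpha chains on many intraepithelial lymphocytes, and the beta chain needs the alpha chain to reach the cell surface. NK receptors pass activating or inhibitory signals to NK cells, innate lymphoid cells and some T cells. Many activating ones depend on adapters for signalling, among them adapters with an immunoreceptor tyrosine-based activation motif (ITAM) such as FcR gamma (Fcer1g) and DAP12 (Tyrobp). Conventional Treg cells carry CD4 and not CD8. In bulk RNA, fewer cells of a type and less RNA per cell cannot be told apart.

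Reads assigned to genes came to 16281133 in WT and 15412425 in Exon2KO. A count of 0 therefore allows a level of up to 0.191 and 0.188 CPM (reads per 1000000 after TMM scaling), which is 3 reads, a 1-sided limit under the upper ends of the 2-sided Poisson intervals of a 0 (0.235 and 0.231 CPM). Foxp3, the gene that defines Treg cells, had 6991 reads in WT and 20946 in Exon2KO, and Cd4 had 4593 and 5367. A count over the whole Foxp3 gene does not test the deletion of 1 exon. Of 7 Treg markers, 4 were called lower and 1 (Foxp3) higher in Exon2KO, by the rule given with the sequences below, under which 6.61% of all genes tested were lower and 7.2% higher. The 3 lowest on the log2 scale were Ikzf2 (-4.29), which encodes Helios, Nrp1 (-2.45) and Tnfrsf18 (-1.59). Of 9 T cell identity markers, 1 was called lower (Cd5, -1.05) and 0 higher, with a median of -0.30. The calls of Cd5 and of Izumo1r, the remaining Treg marker called lower, were lost in edgeR's exact test with an assumed BCV of 0.2, explained below (adjusted p = 0.126 and 0.0745).

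Upstream sequences of the genes that passed the call below are shown first, so that the letters next to their starts stand beside their counts. Genes were tested if both libraries together gave at least 10 reads, and a gene was called when an exact binomial test of its reads gave a Benjamini-Hochberg adjusted p-value below 0.05 and its scaled ratio was at least 2-fold. Each line is the 250 bases before the RefSeq start (GRCm38.p6), 5′ to 3′ on the strand of the gene. Capitals mark the core of RUNX sites (TGTGGT, or ACCACA on the other strand) and the core of T-box sites (GGTGTG, or CACACC on the other strand).
Klrb1f (chr6:129045651-129045900, plus strand): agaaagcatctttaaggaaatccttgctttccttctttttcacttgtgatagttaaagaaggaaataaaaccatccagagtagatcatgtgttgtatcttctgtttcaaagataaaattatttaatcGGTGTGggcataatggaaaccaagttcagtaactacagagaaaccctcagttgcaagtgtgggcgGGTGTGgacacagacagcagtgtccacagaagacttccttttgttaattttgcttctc
Ncr1 (chr7:4337465-4337714, plus strand): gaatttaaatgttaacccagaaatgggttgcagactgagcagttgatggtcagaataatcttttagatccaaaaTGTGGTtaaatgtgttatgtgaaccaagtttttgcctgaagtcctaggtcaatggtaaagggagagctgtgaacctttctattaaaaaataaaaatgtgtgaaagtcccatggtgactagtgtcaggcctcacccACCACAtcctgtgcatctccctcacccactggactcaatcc
Cd8a (chr6:71373177-71373426, plus strand): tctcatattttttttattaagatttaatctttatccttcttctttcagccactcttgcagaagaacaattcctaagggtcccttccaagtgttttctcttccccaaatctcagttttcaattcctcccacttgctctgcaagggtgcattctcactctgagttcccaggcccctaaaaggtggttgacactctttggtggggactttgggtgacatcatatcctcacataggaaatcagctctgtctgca
RUNX and T-box factors are transcription factors that act in the CD8 and NK lineages. The Ncr1 window held the RUNX core at 2 places, 176 and 41 bases before the start. RefSeq has a second Ncr1 start, from which the same cores lie 185 and 50 bases away. The Klrb1f window held the T-box core at 2 places, 123 and 58 bases before the start, and no RUNX core. In the Cd8a window neither motif was found. Of the 10 genes, 7 have an entry in the RefSeq table, and Klrb1c, Klrc1 and Klrk1 also had 1 RUNX core each. The RUNX core was present in 14.05% of the 32851 windows of this length in the table and the T-box core in 16.28%. The forkhead core (TGTTTA, or TAAACA) was in 12.03% of all windows and in none of those of the 7 genes. These matches describe letters only.

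All 10 genes passed the filter on reads. Klrb1f and Ncr1 were called higher in Exon2KO and Cd8a was called lower, and the other 7 were not called. The background over 17363 tested genes was 7.2% called higher and 6.61% called lower, so calls of 2 and 1 in a set of 10 are few genes either way and do not set the group apart. The median log2 ratio of the 10 genes, Exon2KO over WT, was -0.23, beside 0.0035 for all genes tested, with 4 ratios above 0 and 6 below. A call is a statement on reads of 1 library against 1 other, not on genotypes. By the authors' deposited adjusted p-value below 0.05, Klrb1f was the 1 member that passed, beside 2.37% higher and 2.21% lower among the 22447 genes for which they give one. In edgeR's exact test with an assumed relative spread between samples (BCV) of 0.2, Klrb1f was again the 1 member called, against a background of 3.33% higher and 3.09% lower. With 0.4 no member was called, against 0.495% and 0.449%.

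**Figure D1:**
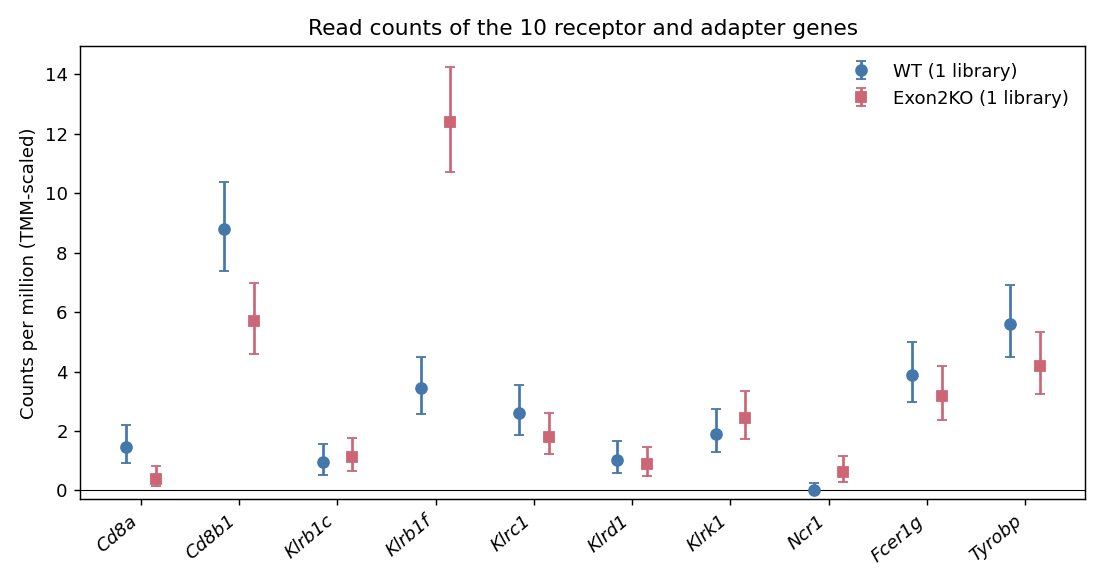
TMM-scaled CPM (vertical axis) of the 10 genes in the WT library (circles) and the Exon2KO library (squares), with 95% Poisson intervals of the counts as bars. Klrb1f stands at 3.44 CPM in WT and 12.4 in Exon2KO, and Ncr1 is at 0 in WT.

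Klrb1f (ENSMUSG00000030154, chromosome 6, 129045901 to 129057464, plus strand, GRCm38) gave the clearest difference. It encodes NKR-P1F, a lectin-like receptor that binds products of the neighbouring Clec2 genes. It had 54 reads in WT (95% Poisson interval 40.6 to 70.5) and 198 in Exon2KO (171 to 228), and these intervals did not overlap. Its level was 3.6-fold higher in Exon2KO, and the log2 ratio with a prior count of 2, which is used for every log2 ratio here except the authors' own, was 1.81. The 95% interval, computed without the prior count, was 1.41 to 2.31. In the authors' deposited table the log2 fold change of Klrb1f is 1.85 and its adjusted p-value 0.00456. An assumed BCV of 0.2 left the call in place in edgeR's exact test (adjusted p = 0.00353), and one of 0.4 ended it (adjusted p = 0.726). No 50-base stretch of its transcripts is shared with a transcript of another gene in GENCODE M21. Gm43992 and Gm44000 overlap it on the opposite strand and had 0 reads in both libraries, with the use of strand not given in the sources used here.

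Ncr1 encodes NKp46, an activating receptor of NK cells and some innate lymphoid cells that signals through FcR gamma and CD3 zeta. The gene (ENSMUSG00000062524) lies on chromosome 7, 4337724 to 4345164, plus strand. It had 0 reads in WT and 10 in Exon2KO (4.80 to 18.4), at least 3.27-fold higher when the WT library is set to 3 reads. The Clopper-Pearson interval of the ratio, which is wider, starts at 2.2-fold. Levels were up to 0.191 CPM in WT, the limit of a count of 0, and 0.625 CPM in Exon2KO. The call rests on those 10 reads, the fewest that the filter admits. It was lost in edgeR's exact test with an assumed BCV of 0.2 (adjusted p = 0.0583) and of 0.4 (adjusted p = 0.413). The authors' deposited table gives an adjusted p-value of 0.0754 for this gene.

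Cd8a, the alpha chain that both forms of CD8 need, went the other way. The gene (ENSMUSG00000053977, chromosome 6, 71373427 to 71379173, plus strand) had 23 reads in WT (14.6 to 34.5) and 6 in Exon2KO (2.20 to 13.1). Its level was 3.9-fold lower in Exon2KO, and the log2 ratio with a prior count of 2 was -1.67, with a 95% interval of -3.55 to -0.63 that includes ratios short of 2-fold. An assumed BCV of 0.2 ended the call in edgeR's exact test (adjusted p = 0.144), as did 0.4 (adjusted p = 1). In the authors' deposited table the log2 fold change of Cd8a is -1.94, with an adjusted p-value of 0.174.

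Cd8b1, the beta chain (ENSMUSG00000053044), starts at 71322788 and ends at 71337494 on the same strand, 35.9 kb before Cd8a. It had 138 reads in WT (116 to 163) and 91 in Exon2KO (73.3 to 112). The log2 ratio was -0.62 (-1.03 to -0.24), short of the 2-fold threshold, and its interval overlaps that of Cd8a. Of the settings tried, it met the call when the fold threshold was set at 1.5. Per gene length the chains were far apart. Cd8b1 stood at 5.90 FPKM in WT and 3.86 in Exon2KO, against 0.401 and 0.104 for Cd8a, so the deposited FPKM of the beta chain was 14.7 times that of the alpha chain in WT and 37.2 times in Exon2KO. Of the 50-base stretches of Cd8b1 transcripts, 6.28% also occur in transcripts of other genes, 53 of them, against 0.0815% for Cd8a. What those shared stretches add to the Cd8b1 count was not tested. Cd4, the coreceptor of the labelled cells, was at 72.2 FPKM in WT and 83.7 in Exon2KO, which is 180 and 807 times Cd8a and 12.2 and 21.7 times Cd8b1. The Exon2KO ratios to Cd8a rest on its 6 reads, with a counting interval of 0.0381 to 0.226 FPKM, and are loose.

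**Figure D2:**
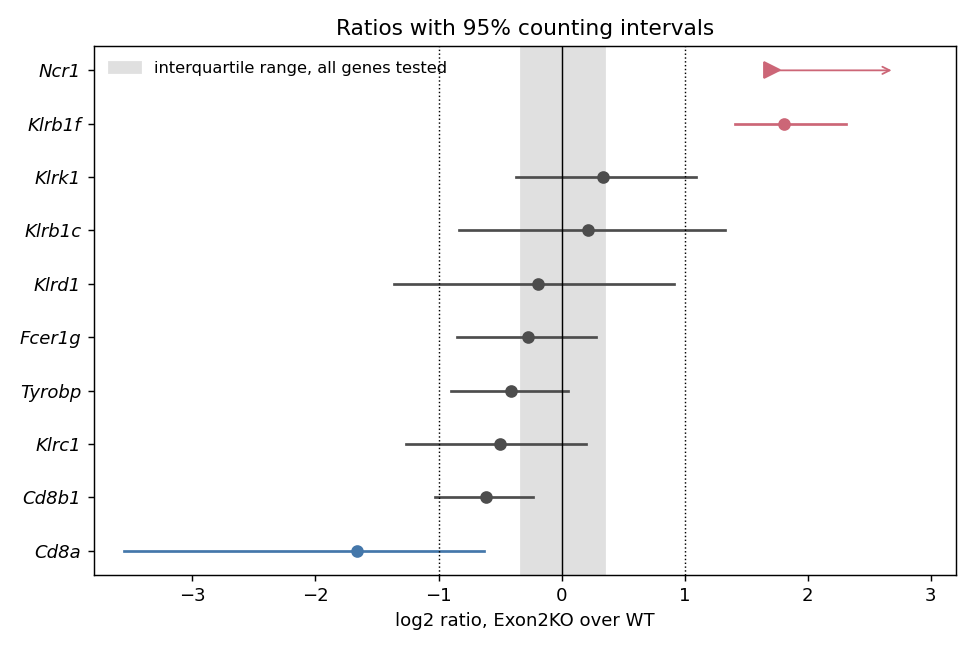
Log2 ratio of Exon2KO over WT (horizontal axis) for each of the 10 genes, with 95% counting intervals as lines. The triangle of Ncr1 is its ratio with WT set to 3 reads (1.71), above the 1.14 at which its 95% interval starts. Dotted lines mark 2-fold and the grey band is the interquartile range of all genes tested. The intervals of Klrb1c, Klrc1, Klrd1, Klrk1, Fcer1g and Tyrobp include 0.

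The remaining 4 lectin-like receptors gave fewer than 50 reads per library and were not called, with intervals that include 0. Klrc1 encodes NKG2A, an inhibitory receptor that pairs with CD94, the product of Klrd1, and recognises the class I-like molecule Qa-1. Klrc1 (ENSMUSG00000030167, chromosome 6, 129666015 to 129678973, minus strand) had 41 and 29 reads in WT and Exon2KO, at -0.50 on the log2 scale (-1.26 to 0.19). Klrd1 (ENSMUSG00000030165, 129591782 to 129598775, plus strand) had 16 and 14 reads, at -0.19 (-1.36 to 0.91). Thus both chains of the NKG2A and CD94 pair were present at a low level in each library. Their deposited FPKM had overlapping counting intervals, at 1.31 and 0.792 in WT and at 0.919 and 0.687 in Exon2KO, a ratio of 1.65 and 1.34. The Klrc1 count is uncertain, since 38.6% of the 50-base stretches of its transcripts also occur in Klrc2 or Klrc3, which had 0 and 0 reads in WT and 2 and 1 in Exon2KO.

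Klrk1 encodes NKG2D, an activating receptor for stress-induced ligands that signals through DAP10 (Hcst) and, in mice, DAP12. It had 30 reads in WT and 39 in Exon2KO, at 0.33 (-0.37 to 1.09), and is the gene next to Klrd1 among the members, 11.5 kb away (ENSMUSG00000030149, 129610323 to 129623864, minus strand). Klrb1c encodes NK1.1, the classical NK cell marker of C57BL/6 mice. It had 15 and 18 reads, at 0.21 (-0.83 to 1.33) (ENSMUSG00000030325, 128778485 to 128789215, minus strand). Of the 50-base stretches of Klrb1c transcripts, 17.0% are shared with Gm44511, Klrb1a, Klrb1b or 1 further gene, and Gm44511, which lies across it on the same strand, had 0 reads in both libraries. Klrb1f was 5.26 times Klrb1c in FPKM in WT and 16.1 times in Exon2KO.

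Neither ITAM adapter was called. Fcer1g (ENSMUSG00000058715, chromosome 1, 171229572 to 171234365, minus strand) had 61 and 51 reads in WT and Exon2KO, at -0.28 on the log2 scale (-0.85 to 0.28). Tyrobp (ENSMUSG00000030579, chromosome 7, 30413760 to 30417585, plus strand) had 88 and 67 reads, at -0.41 (-0.90 to 0.05). Intervals of both include 0. The adapters that T cells use were far more abundant. Hcst, which lies 126 bases from Tyrobp, stood at 181 FPKM in WT and 187 in Exon2KO, 21.6 and 29.6 times the FPKM of Tyrobp. Cd247, which encodes CD3 zeta, stood at 79.0 and 88.5 FPKM, 17.9 and 24.1 times that of Fcer1g. Log2 ratios of Hcst and Cd247 were 0.03 (-0.05 to 0.12) and 0.15 (0.10 to 0.20), and neither was called.

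**Figure D3:**
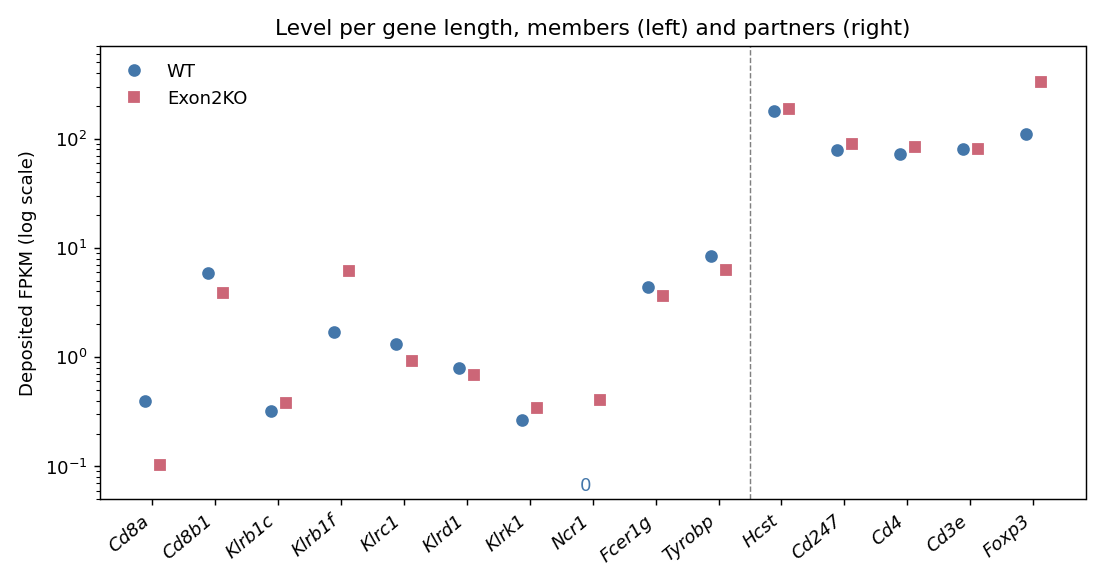
Deposited FPKM on a log axis for the 10 genes (left of the dashed line) and for Hcst, Cd247, Cd4, Cd3e and Foxp3 (right), in WT (circles) and Exon2KO (squares); a 0 marks a gene with no reads. Each of the 10 genes is below 10 FPKM in both libraries, while the 5 partner genes are above 70.

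In order of FPKM, WT ran Tyrobp (8.37), Cd8b1 (5.90), Fcer1g (4.43), Klrb1f (1.69), Klrc1 (1.31), Klrd1 (0.792), Cd8a (0.401), Klrb1c (0.321), Klrk1 (0.265) and Ncr1 (0). Among neighbours in that order, only Fcer1g and Klrb1f had counting intervals that did not overlap, Ncr1 with its count of 0 aside. In Exon2KO Klrb1f moved from the fourth place to the second, at 6.15 FPKM (5.32 to 7.06), beside Tyrobp at 6.31 (4.89 to 8.02). Cd8a moved to the last place, at 0.104 FPKM (0.0381 to 0.226), below Klrk1 at 0.341 (0.243 to 0.467). There the neighbours without overlap were Klrb1f over Cd8b1, Fcer1g over Klrc1 and Klrk1 over Cd8a. Even the highest of these levels lay at the 78.4th percentile of genes with reads in WT (Tyrobp), and the lowest above 0 at the 26.8th (Klrk1). In Exon2KO the highest and lowest were Tyrobp at the 74.8th and Cd8a at the 13.9th.

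Klrb1f lies in the natural killer gene complex, a cluster of lectin-like genes on chromosome 6 that also holds Klrb1c, Klrc1, Klrd1 and Klrk1. The listed lectin genes other than Klrg1, which lies outside the complex, span 128609227 to 131247362, or 2.64 Mb with 124 loci, of which 83 had no read in either library. Of the 14 protein-coding genes tested there, 3 were called higher (Clec2h, Clec2g and Klrb1f) and 1 lower (Clec2i), against 7.2% and 6.61% of all genes tested, and ratios went both ways around Klrb1f. Clec2g and Clec2h passed the filter on reads only through the Exon2KO library, where they were high. Clec2g had 3 reads in WT and 20 in Exon2KO (log2 interval 0.96 to 5.10), and Clec2h had 2 and 16 (0.88 to 6.14), and both lost their call in edgeR's exact test with an assumed BCV of 0.2 (adjusted p = 0.0514 and 0.069). Clec2i encodes Clr-g, a ligand of NKR-P1F, and lies 158 kb before Klrb1f. Its count fell from 230 to 111, at -1.06 on the log2 scale (-1.42 to -0.74), an interval that includes ratios short of 2-fold. Its call was lost in edgeR's exact test with an assumed BCV of 0.2 (adjusted p = 0.16).

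**Figure D4:**
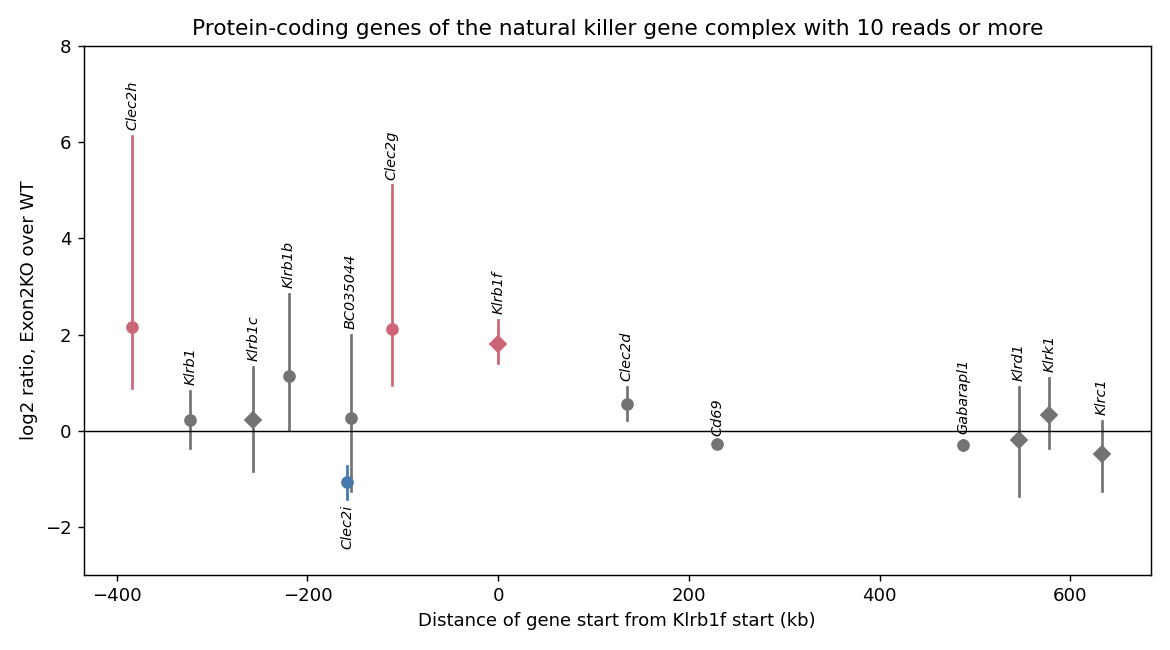
Log2 ratio of Exon2KO over WT (vertical axis, lines are 95% counting intervals) of the 14 tested protein-coding genes of the natural killer gene complex, by the distance of their start from that of Klrb1f in kb. Diamonds are the 5 members, red is called higher and blue called lower. The nearest gene shown before Klrb1f is Clec2g, at 2.12 and called higher, and the nearest after it is Clec2d, at 0.56 and not called.

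Counts of called genes in the lists that follow stand against the same background of 7.2% higher and 6.61% lower over all genes tested. Of the called genes named from these lists, Cd160 and Gzma were the ones that kept the call in edgeR's exact test with an assumed BCV of 0.4 (adjusted p = 0.0372 and 0.00024).

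Other lectin receptors of this family mostly had few reads or none. Of 21 listed, 20 are in the table and 9, all of the Klra (Ly49) group, had 0 reads in both libraries. Only 3 had enough reads for the test. Klrg1, an inhibitory receptor of effector and tissue Treg cells, fell from 6483 to 778 reads, at -3.08 (-3.19 to -2.98). Klrb1 had 46 and 55 reads and Klrb1b 7 and 18, with log2 ratios of 0.22 (-0.36 to 0.83) and 1.13 (0.01 to 2.84), neither of them called. Hence Klrb1f was the one Klrb1-type gene of these 4 (with Klrb1, Klrb1b and Klrb1c) that was called, and the differences between their ratios were not tested.

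Among 9 NK receptors of other families, 8 were tested, 0 were called higher and 2 lower, with a median log2 ratio of -0.61. Cd160, found on intraepithelial and cytotoxic lymphocytes, fell from 116 to 9 reads, at -3.45 (-4.88 to -2.74). Cd96, which shares the ligand CD155 with Tigit and Cd226, fell from 2647 to 839 reads, at -1.68 (-1.80 to -1.57). Tigit and Cd226 themselves were at 0.26 (0.22 to 0.30) and 0.04 (-0.15 to 0.23). Fcgr3, an Fc receptor that needs the Fcer1g product, had 43 and 34 reads.

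Signalling genes downstream of the receptors gave 17 tested genes, of which 1 was called lower and 0 higher, with a median of -0.37. Sh2d1a, which encodes the adapter SAP, fell from 1611 to 714 reads, at -1.20 (-1.33 to -1.07), a call lost in edgeR's exact test with an assumed BCV of 0.2 (adjusted p = 0.06). Syk, the kinase that ITAM adapters engage in NK and myeloid cells, had 55 and 36 reads, at 0.372 and 0.242 FPKM. Zap70, its counterpart in T cells, had 2331 and 2282 reads, at 49.4 and 47.9 FPKM.

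Of 12 ligand genes, 11 were tested, 1 was called higher and 1, Clec2i, lower, and the median was 0.12. H2-T23, which encodes Qa-1, the ligand of NKG2A, had 12887 and 12762 reads, at -0.04 (-0.08 to -0.01). Among NKG2D ligands, Raet1d rose from 26 to 59 reads, at 1.10 (0.47 to 1.88), a call lost in edgeR's exact test with an assumed BCV of 0.2 (adjusted p = 0.264). H60b had 213 and 218 reads. H2-T3, which encodes the ligand of the CD8 alpha homodimer, had 3 and 13 reads, a ratio whose 95% interval on the log2 scale is 0.23 to 4.54, and was not called.

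Lineage factors went both ways, with 9 of 11 tested, 1 called higher, 1 called lower and a median of 0.29. Zeb2, a factor of terminally differentiated NK and CD8 cells, rose from 477 to 1725 reads, at 1.82 (1.68 to 1.98), and Tox fell from 3005 to 1166, at -1.39 (-1.49 to -1.29). Runx3, which silences Cd4 and promotes Cd8 in cytotoxic T cells, had 1249 and 1943 reads, at 0.61 (0.51 to 0.71), short of 2-fold. Zbtb7b encodes ThPOK, the factor that holds cells in the CD4 lineage, and had 94 and 104 reads, at 0.12 (-0.30 to 0.54). Eomes, which NK and memory CD8 cells depend on, had 3 reads in WT and 0 in Exon2KO.

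**Figure D5:**
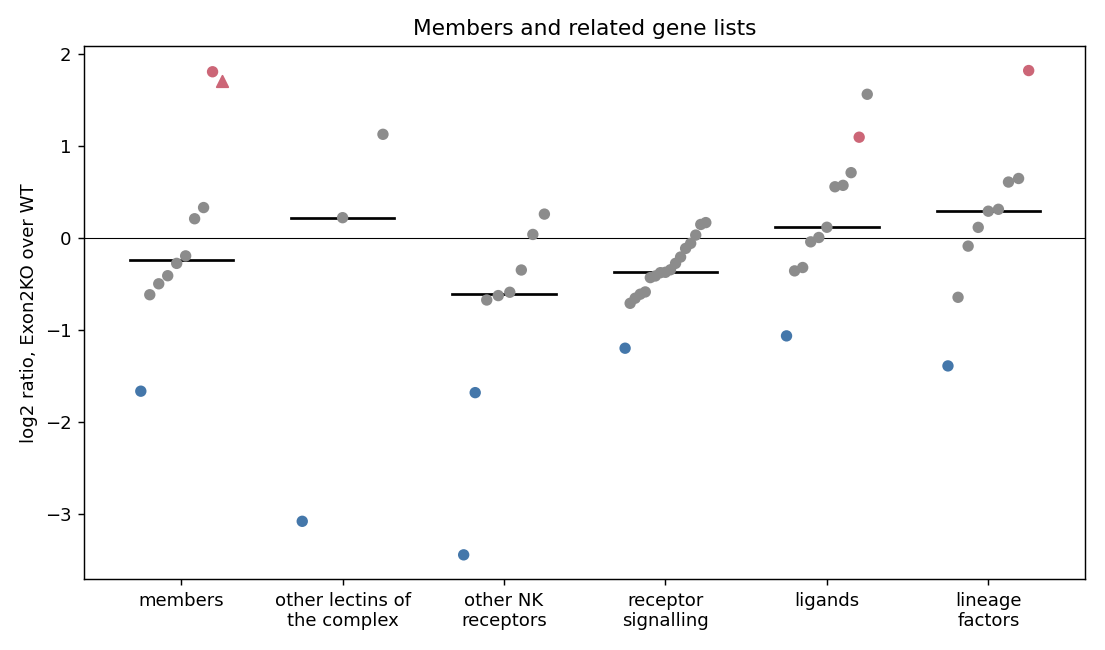
Log2 ratio of Exon2KO over WT (vertical axis) for each tested gene of the members and of 5 related lists, with the median as a bar; red points are called higher, blue called lower and grey not called, and the triangle is the lower bound of Ncr1. The members' ratios lie on both sides of 0, with Klrb1f and Ncr1 above and Cd8a below.

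Markers of the cells that normally carry these receptors did not move as a block. The lists include members of the set: Ncr1 and Klrb1c (NK), Cd8a and Cd8b1 (CD8 T cell) and Cd8a (intraepithelial lymphocyte). Of 10 NK cell markers, 5 were tested, with 1 called higher (Ncr1) and 2 lower (Gzma and Prf1). The 2 tested ones with a ratio above 0, Ncr1 and Klrb1c, are members. The 3 below 0, Gzma, Prf1 and Itga2 (30 and 15 reads, not called), are not members. The summed level of the 10 NK cell markers was 337 CPM in WT and 14.9 in Exon2KO, most of it Gzma, which fell from 5153 to 164 reads. Klra4, Klra7 and Klra8, defining NK receptors, had 0 reads in both libraries. The 5 CD8 T cell markers summed to 13.4 and 9.07 CPM, with Cd8a called lower and Gzmk higher (2 and 19 reads, log2 interval 1.17 to 6.37). Gzmk passed the filter on reads only through the Exon2KO library, where it was high. Of 11 intraepithelial lymphocyte markers, 10 were tested, and Cd8a, Cd160, Gzma, Itgae, Ccl5 and Xcl1 were called lower, while the gamma chain genes Tcrg-C1 and Tcrg-C4 were called higher. The median log2 ratio of that list was -2.16, with 7 of the 10 below 0. Its summed level went the other way, from 3312 to 4089 CPM, most of it Gzmb, which was not called (43499 and 63649 reads). Trdc, which defines gamma-delta T cells, had 14 and 13 reads.

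Myeloid and mast cells carry Fcer1g and Tyrobp too. Of 16 myeloid markers, 11 were tested and 0 were called in either direction. Lyz2 and Cd68 passed the adjusted p-value of the exact binomial test, both higher in Exon2KO (0.32 and 0.50 on the log2 scale), but not the 2-fold threshold. The list had a median log2 ratio of -0.05 and sums of 52.6 and 61.4 CPM. Lyz2 stood at 15.3 and 19.3 FPKM in WT and Exon2KO and C1qb at 3.03 and 2.95, beside 4.43 and 3.67 for Fcer1g and 8.37 and 6.31 for Tyrobp. Of 9 mast cell and basophil markers, 6 (Ms4a2, Fcer1a, Tpsb2, Mcpt1, Mcpt2 and Mcpt8) had 0 reads in both, and Kit was called lower (149 and 53 reads), with sums of 27.4 and 16.7 CPM. Among 6 markers of dendritic cells that carry CD8 alpha, 3 were tested, with a median of -0.02. Zbtb46 was called lower (548 and 140 reads) and made up most of the difference between the sums of 48.3 and 21.7 CPM. Xcr1 (184 and 185 reads) and Flt3 (16 and 22) were not called, and Itgax had 0 reads in both. Batf3 had 7 reads in WT and 0 in Exon2KO and Clec9a had 3 and 0, too few for the test. The part of these cells in the counts of the 10 genes was not tested.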

How the data were processed

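Total RNA of 2 samples was sequenced, 1 library per genotype, grouped by the genotype label. The authors deposited 1 table with raw read counts per gene, FPKM values (per gene length and library size), a scaled count signal that was not used here, and a log2 fold change with p-values from their own comparison. Per the submitters' processing notes, HISAT2 2.0.5, StringTie 1.3.3b, featureCounts 1.5.0-p3 and DESeq2 1.16.1 were used with mm10. The tool behind each deposited value and the treatment of strand and of reads with several matches are not given in the sources used here. Coordinates are as deposited and equal GENCODE M21 (GRCm38) for all 10 genes.

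From the counts, TMM factors (edgeR 4.0.16, R 4.3.3; 0.964 for WT and 1.04 for Exon2KO) scaled the libraries. A single library per group leaves no spread for edgeR's quasi-likelihood test. Every gene reaching 10 reads, both libraries summed, was therefore given a 2-sided exact binomial test (smaller tail doubled), with Benjamini-Hochberg adjustment over all 17363 genes tested, and a 2-fold threshold on the log2 ratio with a prior count of 2. Intervals at 95% are Clopper-Pearson for ratios, computed without the prior count, and exact Poisson for counts. They cover counting error only, since 1 library per genotype gives no spread between samples. Reads lack molecular identifiers and may be copies of 1 molecule, so the intervals may be too narrow even for counting error. The computation was tested on simulated data with counting error alone and changes planted only in genes with many reads. Recovery of changes at low counts and spread between libraries were not covered. Alternatives covered scaling, read filter, prior count, fold threshold and assumed spread. Python 3.11.15, scipy 1.17.1 and statsmodels 0.14.6 were used.

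The members and lists were chosen with earlier results of these data known. Named genes are all members, the called genes of each list (up to 3 at each end), and fixed partners, ligands and lineage factors. Others, such as Clec2g, Clec2h, Klrb1, the further calls among intraepithelial lymphocyte markers (Itgae and Ccl5), Izumo1r and the uncalled list genes, were named after their values were seen.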

Additional observations from a re-analysis of the deposited data

How the results depend on the processing

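Scaling by the upper quartile, by DESeq2 size factors, by library totals, or by TMM with immunoglobulin, haemoglobin and mitochondrial genes removed left the calls at 2 higher (Klrb1f and Ncr1) and 1 lower (Cd8a), and no log2 ratio of the 10 genes changed sign under them or under prior counts of 0.5 and 5. Library totals moved the median of all genes tested by 0.105. The median of the members ran from -0.34, with at least 50 reads, to -0.14, with library totals. A minimum of 50 reads left 1 call higher (Klrb1f) and 0 lower, since 6 members were tested. A fold threshold of 4 left 1 higher (Ncr1, by its fitted ratio, while its bound of 3.27-fold is under 4) and 0 lower, and one of 1.5 gave 2 higher and 2 lower. In edgeR's exact test, 1 gene higher (Klrb1f) and 0 lower were called with an assumed BCV of 0.2, and 0 and 0 with 0.4. The call per gene under an assumed spread, members and list genes alike, was chosen after seeing the data. No paired analysis was possible because each genotype has 1 library, which also left no library to leave out. Depth limits Ncr1, Cd8a, Klrb1c and Klrd1, with fewer than 25 reads per library, to wide intervals or a bound.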

Other observations

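The interval around Klrb1f holds further loci with differing counts, named here after their values were seen. BC064078, a transcribed pseudogene that starts 53.0 kb before Klrb1f, had 184 and 62 reads in WT and Exon2KO, at -1.57 on the log2 scale (-2.04 to -1.17). It was called lower, a call kept in edgeR's exact test with an assumed BCV of 0.2 and lost with 0.4. An unnamed locus outside Ensembl in the same stretch had 70 and 172 reads, at 1.25 (0.86 to 1.69), and was called higher, a call lost with an assumed BCV of 0.2 (adjusted p = 0.0851). Clec7a, which encodes the beta-glucan receptor dectin-1, had 66 and 24 reads, at -1.41 (-2.22 to -0.79), a call lost in edgeR's exact test with an assumed BCV of 0.2 (adjusted p = 0.0829). Cd69, an activation and tissue residence marker in the same interval, had 10871 and 9170 reads, at -0.27 (-0.31 to -0.23), and was not called. Across the interval as a whole the 24 loci tested, non-coding and unnamed loci included, had 4 called higher and 3 lower, with a median log2 ratio of -0.0042. Over all genes tested, 7.2% were called higher and 6.61% lower.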
